A study of Mus musculus with 31 samples.

Results

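CpG-poor open coding promoters are described here in the chromatin accessibility map of parental NIH-3T3 cells, immortalised fibroblasts derived from mouse embryos, before any TF gene was introduced. A member is an ATAC-seq peak that covers a transcription start site (TSS) of a protein-coding transcript with few CpG dinucleotides around it, and that covers no coding TSS with more. Few means a CpG observed/expected ratio below 0.4 within 500 bp to either side of the TSS, a value near 1 being what the C and G content alone would give. The rule used the DNA sequence and the peak intervals, and neither the height of a peak nor any motif. Of 63456 peaks in the library, 803 (1.27%) were members, and they covered 1228 TSS positions. TSSs of 1 gene lying within 500 bp of each other were joined into promoters, which gave 816 promoters of 783 genes in member peaks. The comparison group was 17168 CpG-poor coding promoters without a peak, called closed below for brevity.

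The study overexpressed 13 TFs in NIH-3T3 cells to ask how they change accessibility. The map of the parental cells came from 1 library of 50000 cells treated with 0.5 µM Tn5, and its labels list no doxycycline, whereas the study's ATAC-seq methods give doxycycline treatment for NIH-3T3 cells in general. The other 30 samples were not analysed here. With 1 library there is no replicate error. Peaks and promoters are not replicates of a condition, so that shares are given with exact 95% Clopper-Pearson intervals that cover counting error only, and no test was made. Accessibility in a smaller part of the cells and weaker accessibility in each cell cannot be told apart in such a bulk library.

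In ATAC-seq, the transposase Tn5 inserts sequencing adapters into DNA that is not wrapped around nucleosomes, and the fragments pile up over accessible sites. Most mammalian promoters lie in CpG islands, which escape DNA methylation, are open in nearly all cell types and often serve housekeeping genes. CpG-poor promoters more often belong to genes used by 1 or a few cell types, are frequently methylated where the gene is silent, and include most of the classical TATA box promoters. Their opening is thought to depend more on TFs that are present only in some cells or states, such as AP-1, a dimer of FOS and JUN proteins that is active in growing fibroblasts.

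Among CpG-poor coding promoters, 816 of 18046 lay in a member peak, which is 4.52% (interval 4.22 to 4.84). Over coding promoters of any CpG content, 32.5% lay in a peak, and over CpG-rich ones the share was 62.6% (61.8 to 63.3, n = 16635). Another 62 CpG-poor promoters lay in a peak that also covered a CpG-rich TSS and were left out by the rule. Counted by gene, 783 of 12470 genes with a CpG-poor promoter had it in a member peak, or 6.28%, and this is the background for the gene groups below.

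The sequences that follow are shown because the results turn on letters found just upstream of the TSS. Each line gives the 120 bp that end 1 bp before the TSS, 5′ to 3′ in the direction of transcription, from the GRCm38 (mm10) reference genome. None overlaps an annotated exon. The first 6 are members with a TATA box, the site bound by the TATA-binding protein, defined here as TATAAA lying wholly between 40 and 20 bp upstream of the TSS on the sense strand. Capitals mark the TATA box and any match to the AP-1 letters TGANTCA.
Aqp1 (chr6:55336312-55336431, plus strand): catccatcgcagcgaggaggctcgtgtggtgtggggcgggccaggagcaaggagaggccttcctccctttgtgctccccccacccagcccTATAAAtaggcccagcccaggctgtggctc
S100a4 (chr3:90603651-90603770, plus strand): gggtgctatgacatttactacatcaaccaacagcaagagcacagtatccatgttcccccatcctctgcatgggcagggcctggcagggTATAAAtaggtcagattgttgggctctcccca
Ccl7 (chr11:82045592-82045711, plus strand): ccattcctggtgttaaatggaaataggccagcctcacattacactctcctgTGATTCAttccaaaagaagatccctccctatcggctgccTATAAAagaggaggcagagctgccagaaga
Tph2 (chr10:115185023-115185142, minus strand): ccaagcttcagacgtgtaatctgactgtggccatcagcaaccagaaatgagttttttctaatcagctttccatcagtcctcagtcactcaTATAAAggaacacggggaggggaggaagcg
Ecm1 (chr3:95739570-95739689, minus strand): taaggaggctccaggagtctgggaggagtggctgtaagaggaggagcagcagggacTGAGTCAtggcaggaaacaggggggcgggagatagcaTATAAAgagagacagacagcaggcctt
Serpinb2 (chr1:107511303-107511422, plus strand): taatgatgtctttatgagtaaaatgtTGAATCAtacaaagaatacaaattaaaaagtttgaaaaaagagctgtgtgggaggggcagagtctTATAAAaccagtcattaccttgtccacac

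The next 6 members hold the AP-1 letters TGANTCA, which read the same on both strands, within 120 bp of the TSS. They include some of the highest peaks and genes of the cytokine and interferon lists, and capitals mark the AP-1 letters.
Ifi203 (chr1:173942673-173942792, minus strand): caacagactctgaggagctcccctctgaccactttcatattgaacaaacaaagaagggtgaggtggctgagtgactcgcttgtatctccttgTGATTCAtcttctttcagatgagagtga
Cdk14 (chr5:5420313-5420432, minus strand): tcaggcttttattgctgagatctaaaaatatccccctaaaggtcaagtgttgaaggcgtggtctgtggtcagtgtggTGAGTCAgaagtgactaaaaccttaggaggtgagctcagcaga
Fgd4 (chr16:16560220-16560339, minus strand): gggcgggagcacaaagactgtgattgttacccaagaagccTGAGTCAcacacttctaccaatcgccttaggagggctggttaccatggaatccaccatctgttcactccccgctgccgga
Il11 (chr7:4778142-4778261, minus strand): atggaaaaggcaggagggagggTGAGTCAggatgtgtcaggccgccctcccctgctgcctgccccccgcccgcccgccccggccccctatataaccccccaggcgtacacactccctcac
Gbp2 (chr3:142620482-142620601, plus strand): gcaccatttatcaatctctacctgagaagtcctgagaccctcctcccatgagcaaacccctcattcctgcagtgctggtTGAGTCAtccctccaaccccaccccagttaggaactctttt
Gstp2 (chr19:4042264-4042383, minus strand): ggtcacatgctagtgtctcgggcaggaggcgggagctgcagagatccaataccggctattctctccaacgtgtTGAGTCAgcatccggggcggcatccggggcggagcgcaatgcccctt

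Of the 10 named members with the highest fold enrichment, 5 held CCAAT, the letters bound by NF-Y, on either strand in these 120 bp. The letters are common. From 250 bp upstream to 50 bp downstream, 40.2% of members, 36.5% of closed and 36.6% of all coding promoters held them. No share was counted for 120 bp, so that the 5 of 10 show no excess. These 5 are printed with Col1a1, which encodes the main chain of type I collagen, and capitals mark CCAAT or its reverse complement.
Fggy (chr4:95557387-95557506, plus strand): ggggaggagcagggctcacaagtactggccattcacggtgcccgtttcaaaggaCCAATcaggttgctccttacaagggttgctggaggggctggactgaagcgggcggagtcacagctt
Golph3l (chr3:95588814-95588933, plus strand): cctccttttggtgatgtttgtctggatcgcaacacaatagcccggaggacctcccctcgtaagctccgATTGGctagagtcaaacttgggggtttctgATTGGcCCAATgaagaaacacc
Zfp971 (chr2:178023164-178023283, plus strand): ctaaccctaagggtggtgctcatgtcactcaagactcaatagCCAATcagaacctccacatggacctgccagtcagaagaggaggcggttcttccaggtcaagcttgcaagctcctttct
Akr1e1 (chr13:4609175-4609294, minus strand): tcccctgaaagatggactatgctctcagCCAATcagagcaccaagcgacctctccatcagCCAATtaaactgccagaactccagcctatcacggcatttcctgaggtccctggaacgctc
Zfp442 (chr2:150451487-150451606, minus strand): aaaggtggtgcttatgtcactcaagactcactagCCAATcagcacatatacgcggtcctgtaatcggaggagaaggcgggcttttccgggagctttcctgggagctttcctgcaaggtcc
Col1a1 (chr11:94936104-94936223, plus strand): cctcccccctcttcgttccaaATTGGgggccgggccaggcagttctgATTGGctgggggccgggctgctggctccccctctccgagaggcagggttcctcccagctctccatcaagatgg

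The last pair holds a CArG box, the site of serum response factor, in capitals. Lima1 encodes an actin-binding protein, and Aspa encodes aspartoacylase.
Lima1 (chr15:99820144-99820263, minus strand): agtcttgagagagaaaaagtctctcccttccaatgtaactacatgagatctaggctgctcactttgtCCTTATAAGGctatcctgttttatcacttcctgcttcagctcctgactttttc
Aspa (chr11:73324635-73324754, minus strand): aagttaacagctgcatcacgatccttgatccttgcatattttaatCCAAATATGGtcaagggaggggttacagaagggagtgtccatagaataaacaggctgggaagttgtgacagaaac

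The share of promoters in a peak climbed with CpG content inside the CpG-poor class too. It was 1.21% (0.835 to 1.70) for a CpG ratio below 0.1, 3.27% for 0.1 to 0.2, 5.19% for 0.2 to 0.3 and 10.3% (9.27 to 11.3) for 0.3 to 0.4. Just above the limit, at 0.4 to 0.5, it was 22.3% (20.6 to 24.0), and it reached 81.4% at 0.9 to 1.0. The limit of 0.4 therefore cuts through a gradient and not through a gap. The 3 members nearest to it had a highest CpG ratio of 0.3995 (Ggta1 and Zfp759) and 0.3990 (Golph3l), and the peaks just outside had 0.4004 (Rhoj), 0.4007 (Srrm3) and 0.4010 (Fez1). Members were themselves less CpG-poor than closed promoters, with a median ratio of 0.264 (quartiles 0.186 and 0.330) against 0.195 (0.128 and 0.272). They held a median of 16 CpG in this window against 10, and their median GC content was 50.4% against 45.7%.

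**Figure D1:**
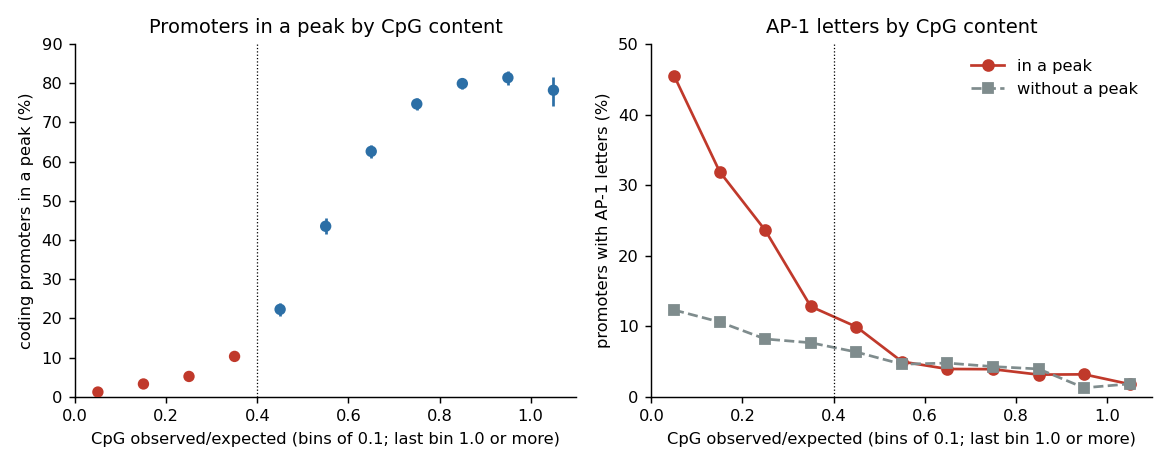
Left, percentage of coding promoters in any peak by CpG observed/expected ratio in bins of 0.1, with exact 95% intervals as vertical lines (red, CpG-poor; blue, CpG-rich; dotted line, the limit of 0.4). The share climbs from 1.21% to 81.4% without a step at the limit. Right, percentage of promoters with the AP-1 letters, in a peak (red) and without one (grey), which fall from 45.5% and 12.3% in the lowest bin to meet near a ratio of 0.5.

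Member peaks were narrower and lower than CpG-rich promoter peaks, and wider and higher than distal peaks, defined as peaks more than 1 kb from any annotated start. The median width was 482 bp for members, 832 bp for 9094 CpG-rich promoter peaks and 278 bp for 47192 distal peaks. The number of fragments over the summit, solved from the deposited fold enrichment and p-value, had a median of 41 for members (quartiles 26 and 66, range 11 to 202), 66 for CpG-rich promoters and 25 for distal peaks. Fold enrichment, the ratio of the summit pileup to the pileup expected locally with 1 added to each, had medians of 7.06, 10.0 and 5.54. The distributions overlapped broadly, and the upper quartile of members equalled the median of the CpG-rich promoters, at 66 fragments. Within CpG-poor promoters in any peak, with the 62 left out by the rule included, peak size rose with the CpG ratio. The median width of the peak at open promoters was 278 bp for a ratio below 0.1, 404 bp for 0.1 to 0.2, 525 bp for 0.2 to 0.3 and 561 bp for 0.3 to 0.4. The corresponding summits had 28, 37, 42 and 49 fragments. Members alone were split into 4 groups of 204 promoters by CpG ratio. From the lowest to the highest group, median widths were 383, 500, 541 and 522 bp. The medians of summit fragments were 33, 40.5, 43.5 and 44.5, so that the rise flattened in the upper groups.

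**Figure D2:**
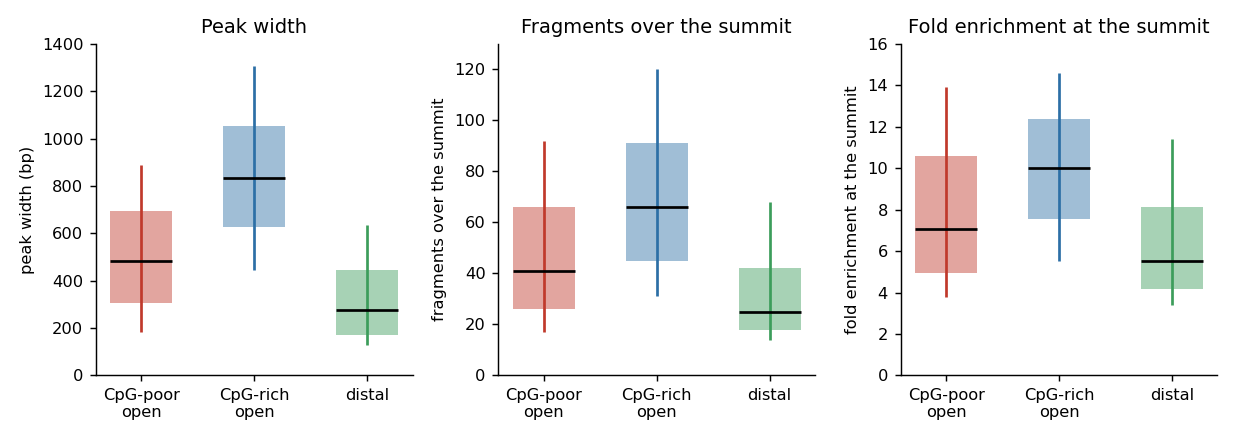
Peak width in bp, fragments over the summit and fold enrichment for the 803 members (red), 9094 CpG-rich promoter peaks (blue) and 47192 distal peaks (green). Black lines are medians, boxes run from the 25th to the 75th percentile and thin lines from the 10th to the 90th. Members lie between the other 2 classes in each measure.

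The summit of a member peak lay close to the TSS and mostly upstream of it. A member covers a TSS by rule, so that closeness was partly given in advance. The median position was 35.5 bp upstream (quartiles 97 bp upstream and 17 bp downstream), and 558 of 816 promoters (68.4%) had the summit upstream. Within 100 bp of the TSS lay 540 summits, or 66.2% (62.8 to 69.4), compared with 60.6% (59.6 to 61.5) for CpG-rich promoters. This comparison was not adjusted for peak width, with medians of 482 bp for members and 832 bp for CpG-rich promoter peaks. Of the 803 member peaks, 711 had a CpG-poor coding TSS within 200 bp of the summit. Some members reached the TSS only with the edge of a peak centred elsewhere. At Glipr1, which encodes a protein of the cysteine-rich secretory family, the summit with 79 fragments lay 1272 bp inside the gene. The TSS of Acta2, the smooth muscle actin of contractile fibroblasts, was covered by a peak of 1559 bp whose summit with 34 fragments lay 610 bp downstream.

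The 10 named members with the highest fold enrichment included 4 zinc finger genes and 2 genes of the Ifi group. Zfp972 on chromosome 2 had a fold enrichment of 24.9 with 94 fragments, Zfp960 on chromosome 17 had 22.6 with 89, and Fggy, a gene of the carbohydrate kinase family, had 21.5 with 159. Zfp971 and Zfp442 reached 20.5 and 19.5. The PYHIN genes Ifi203 and Ifi211, members of a family of interferon-inducible DNA sensors, had 20.5 and 19.6, and Akr1e1, an aldo-keto reductase, had 19.8. Rasal2, a Ras GTPase-activating protein, and Golph3l, a Golgi protein, had 20.9 and 20.8. In this ranking, 9 predicted or unnamed genes (symbols starting with Gm or ending in Rik) were passed over, and 1 of these held the highest value of all members, 28.6. The 4 zinc finger genes combined summits above the upper quartile of members, 66 fragments, with a low expected pileup. It was 2.81 fragments at Zfp972, the lowest value among members, and 2.91 at Zfp971.

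Ranked by fragments over the summit, Ifi211 came first with 202. Cdk14, a cyclin-dependent kinase, followed with 186, Emp1, a membrane protein of epithelia and fibroblasts, with 185 and Cavin2, a coat protein of caveolae, with 178. Prkg2, a cGMP-dependent kinase, had 160, Fggy 159, Fgd4, an exchange factor for Cdc42, 154 and Aqp1, a water channel, 150. Abl2, a cytoplasmic tyrosine kinase, and S100a3, a calcium-binding protein, had 147 and 140. The Abl2 TSS is annotated as an incomplete 5′ end, so that it may not be a true start. Cdk14, Rasal2 and Abl2 also had a CpG-rich TSS in a peak elsewhere. At the other end, Kcnk7, a potassium channel gene, had a fold enrichment of 2.41 with 16 fragments, Il2rb, an interleukin-2 receptor chain, 2.47 with 14, and Plec, which encodes the cytolinker plectin, 2.49 with 63 fragments over an expected 24.7. The widest members were Rtkn with 2043 bp, Sgk2 with 1671 bp and Acta2.

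TATA boxes were found in 17 member promoters, or 2.08% (1.22 to 3.31), and in 462 closed CpG-poor promoters, or 2.69% (2.45 to 2.94). The share was thus no higher in the open class in this window, and the interval of the closed class lay inside that of the open one. Open CpG-rich promoters held it in 0.538% (0.407 to 0.698). The letters were position-bound in all 3 classes: in a window 100 bp further upstream they occurred in 0.245% of members, 0.571% of closed CpG-poor promoters and 0.173% of open CpG-rich ones. Among the 17 were Aqp1 with 150 fragments, S100a4, a calcium-binding protein named for fibroblasts, with 105, Tsc22d3, the glucocorticoid-induced leucine zipper protein, with 84 and Anxa1, annexin A1, with 73. The chemokine Ccl7 and the neuronal serotonin-synthesis enzyme Tph2 had 57 each, and the matrix protein Ecm1 had 50. The first base of the box lay 30 bp upstream of the TSS in Aqp1, Anxa1, Ccl7 and Tph2, 32 bp in S100a4 and Mgst2, 28 bp in Tsc22d3 and 27 bp in Ecm1. Of the 17, 13 belonged to genes with no CpG-rich TSS. Members that served as alternative promoters of genes with an open CpG-rich TSS held 1 TATA box in 209 promoters.

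Members differed from closed promoters in the letters of AP-1. TGANTCA occurred between 250 bp upstream and 50 bp downstream of the TSS in 183 members, or 22.4% (19.6 to 25.4), in 9.61% (9.17 to 10.1) of closed CpG-poor promoters and in 3.96% of open CpG-rich ones. Over coding promoters of any class the share was 7.37%. Members were divided into 3 groups of about equal size by GC content, at 47.9% and 52.9%, a split chosen after seeing the data. The difference between open and closed promoters was present in each group, with 31.9% against 10.9% in the lowest, 18.6% against 7.73% in the middle and 16.5% against 7.30% in the highest. It was also graded by CpG content, counted here over promoters in any peak, with the 62 CpG-poor promoters left out by the rule included. Their share was 45.5% (n = 33) for a CpG ratio below 0.1, 31.9% for 0.1 to 0.2, 23.6% for 0.2 to 0.3 and 12.8% for 0.3 to 0.4. Among promoters without a peak it went from 12.3% to 7.66%. At a ratio of 0.5 to 0.6 both shares were alike, 4.99% and 4.62%.

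The AP-1 letters were placed close to the TSS and to the summit. In 50-bp steps from the TSS, 6.5% (4.90 to 8.41) of members held a match starting in the 50 bp just upstream and 5.88% in the 50 bp before, compared with 1.84% at 500 to 450 bp upstream. In closed promoters the same steps gave 1.60%, 2.03% and 1.72%. In 101-bp windows centred on the summit, 17.8% of members held the letters, and 100 bp to either side of it 5.98% and 4.36% did. At CpG-rich promoter summits the share was 1.77%, and at distal summits 31.9%. Members thus lay between CpG-rich promoters and distal peaks in this respect as well. In the member with the second highest summit, Cdk14, the letters lie from 43 to 37 bp upstream of the TSS, and the summit lies 4 bp upstream. Peaks with and without the letters in the promoter window hardly differed in height, with medians of 42 and 41 fragments, and the former were narrower (430 against 502 bp).

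**Figure D3:**
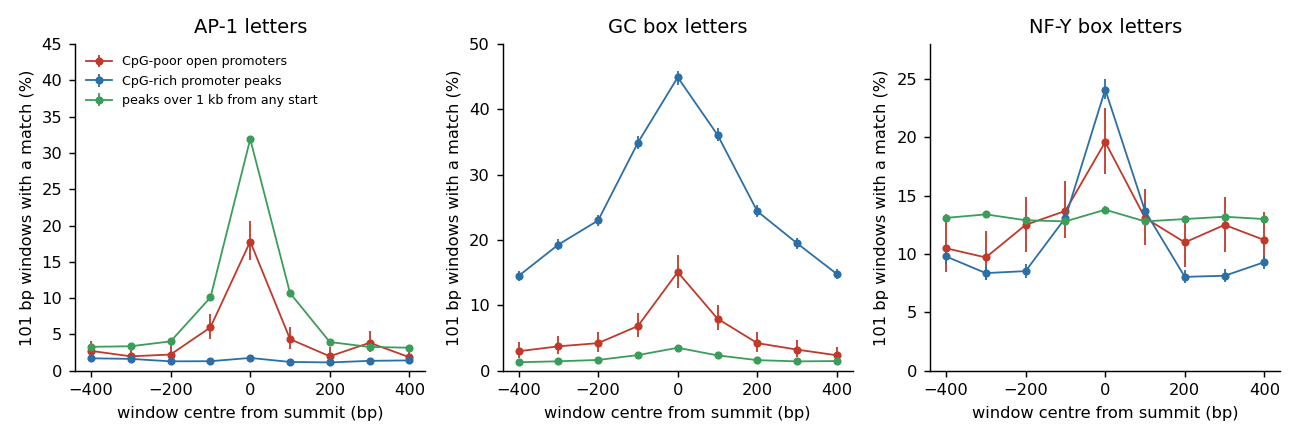
Percentage of 101-bp windows with the AP-1, GC box or NF-Y (CCAAT) letters against the distance of the window centre from the peak summit in bp, for members (red), CpG-rich promoter peaks (blue) and distal peaks (green), with exact 95% intervals. AP-1 letters reach 17.8% at member summits, between 1.77% and 31.9% for the other classes, and GC box letters reach 15.1%, between 3.52% and 44.9%.

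GC box letters (GGGCGG, either strand), bound by SP and KLF factors, differed by more percentage points than the AP-1 letters. They occurred in 25.1% of members, 8.20% of closed CpG-poor promoters, 70.9% of open CpG-rich promoters and 35.3% of all coding promoters. These letters contain a CpG, so that their number is tied to the quantity that defines the class. The share among members was higher than among closed promoters in each group of GC content, with 10.5% against 2.71%, 21.2% against 11.4% and 44.4% against 23.6%. Of the members, 149 promoters held only AP-1 letters, 171 only the GC box, 34 both and 462 neither. The AP-1 members without a GC box had a lower median CpG ratio than GC box members without AP-1 (0.207 against 0.299) and belonged more often to genes that also had an open CpG-rich TSS (34.9% against 20.5%).

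The differences in other letters were smaller in percentage points, though not always as ratios, since several are rare. CCAAT on either strand was found in 40.2% of members, 36.5% of closed and 39.7% of open CpG-rich promoters, and 36.6% of all coding promoters. In members its position was concentrated from 100 to 50 bp upstream of the TSS, where 14.6% held it, compared with 9.70% of closed and 16.2% of open CpG-rich promoters. RUNX letters (TGTGGTT) were found in 9.44% of members against 7.05% of closed and 5.21% of all promoters, and AGGAAG, the ETS letters without a CpG, in 47.4% against 38.1% and 34.8%. The ETS letters with a CpG, CCGGAAG, occurred in 4.78% against 1.94% of closed and 8.37% of all promoters. STAT letters (TTCCNGGAA) were in 2.70% against 1.18% and 1.16%, and NF-kB letters (GGGANTTCC) in 2.70% against 1.22% and 1.71%. The cAMP response element TGACGTCA was rare, in 1.35% against 0.623% and 1.85%. As ratios of open to closed, CCGGAAG (2.46), STAT (2.29), NF-kB (2.21) and the cAMP response element (2.16) were near AP-1 (2.33), and the GC box had 3.07. In the group of highest GC content the order turned for CCGGAAG (3.38% of members against 3.79% of closed promoters) and STAT (1.13% against 1.24%). Several motifs were no more frequent in members than in closed promoters: C/EBP (TTGCNNAA, 12.7% against 13.4%, 10.7% of all), IRF (GAAANNGAA, 9.80% against 11.3%, 9.15% of all), FOX (TGTTTAC, 4.53% against 4.49%, 3.41% of all) and the CArG box (1.47% against 1.70%, 1.51% of all). The GATA letters AGATAAG, bound by factors of blood and endoderm, were less frequent in members, in 2.82% against 4.50% of closed and 3.11% of all promoters. TEAD letters (GGAATG) were found in 18.1% against 16.3% of closed and 13.9% of all promoters, and in 15.8% against 16.7% of closed promoters in the group of highest GC content. All were searched on both strands, and a match is a run of letters and not a shown binding site.

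**Figure D4:**
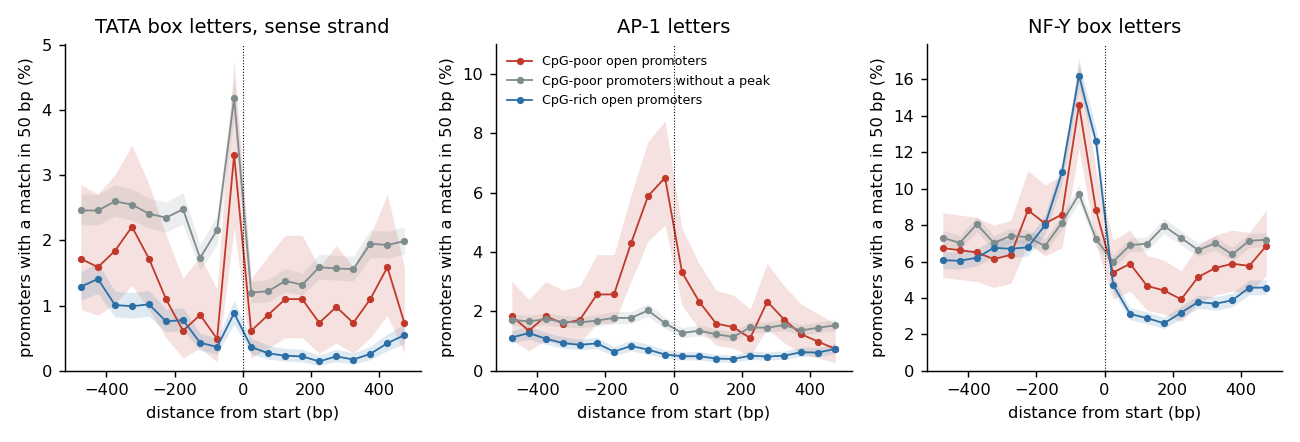
Percentage of promoters with the TATA box letters on the sense strand, the AP-1 letters or the NF-Y (CCAAT) letters starting in successive 50-bp steps, against distance from the TSS in bp, for members (red), CpG-poor promoters without a peak (grey) and open CpG-rich promoters (blue). Shading gives exact 95% intervals. TATA box letters are raised just upstream of the TSS in open and closed CpG-poor promoters alike (3.31% and 4.18%), whereas AP-1 letters are raised there in members only among these 3 classes (6.5% against 1.60% and 0.548%).

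Most members were the promoter of a gene without any CpG island-like TSS. Of the 783 genes, 499 (63.7%) had no CpG-rich coding TSS, 196 (25%) had one in a peak and 88 (11.2%) had one without a peak. The share of CpG-poor promoters in a member peak was similar in the 3 kinds of gene, at 4.77% (4.37 to 5.19), 4.23% (3.68 to 4.83) and 4.14% (3.37 to 5.03). In genes with an open CpG-rich TSS, 160 of 209 member promoters lay downstream of the nearest one, and the median distance to it was 17155 bp (quartiles 5821 and 40115). AP-1 letters were found in 27.8% (21.8 to 34.3) of these alternative promoters and in 19.8% (16.4 to 23.5) of promoters of genes without a CpG-rich TSS, and the intervals overlapped. Csrp1, which encodes a LIM protein of the actin cytoskeleton, and Timp3, a metalloproteinase inhibitor, are examples of such alternative promoters, with 20 and 47 fragments. Gapdh, the glycolytic enzyme, had a member peak with 88 fragments and an open CpG-rich TSS elsewhere, and the nearest other peak lay 406 bp from its CpG-poor TSS.

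Transcripts at members were better supported than at closed promoters. The highest GENCODE transcript support level was given to 65.8% of member promoters, 40.1% of closed and 86.8% of open CpG-rich promoters. An incomplete 5′ end, which means that the true start was not established, was recorded for 2.94% of members and 18.5% of closed promoters. Of CpG-poor promoters with the highest support, 7.23% lay in a member peak, and of those with an incomplete 5′ end 0.750%. Part of the closed group thus consists of positions that may not be promoters.

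Members lay in regions with more accessible sites. Their nearest other peak was at a median distance of 5350 bp, against 15086 bp for closed CpG-poor promoters and 7921 bp for open CpG-rich ones. A median of 6 other peaks lay within 50 kb, against 3 and 5. Only 1.84% of members had no other peak within 100 kb, compared with 22.1% of closed promoters. The share of CpG-poor promoters in a member peak went from 0.826% (0.599 to 1.11) where no other peak lay within 50 kb to 3.87% with 1 or 2, 5.2% with 3 to 5, 7.72% with 6 to 9 and 9.56% (8.05 to 11.2) with 10 or more.

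Another member, of the same family or not, lay within 100 kb of 233 of the 803 (29.0%), and 26 runs held 3 or more, with 97 members in all. No like count was made for closed promoters or other peaks. Whether members lie closer together than their genes do was therefore not tested. Some runs held genes of 1 family, and others held unrelated genes, such as Mmp19, Dnajc14 and Cd63, or several promoters of Sbno2 alone. The longest run, of 6 peaks on chromosome 13, covered the zinc finger genes Zfp759, Zfp455, Zfp458, Zfp457 and Zfp953. Another on chromosome 13 held 5 peaks at Zfp729a, Zfp738, Zfp65 and Zfp85, and 1 on chromosome 2 held 5 peaks at Zfp972, Zfp971, Zfp931 and 2 predicted genes. On chromosome 3, a run of 5 peaks covered S100a16, S100a3, S100a4 and S100a8, genes of the S100 calcium-binding proteins. On chromosome 1, 5 peaks covered Ifi211, Ifi203 and Ifi205 and the neighbouring odorant receptor genes Olfr433 and Olfr432. Shorter runs held the aldo-keto reductases Akr1c14, Akr1c18, Akr1c13 and Akr1c12, with 42, 34, 39 and 17 fragments, and the monocyte chemokines Ccl2, Ccl7 and Ccl12.

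The families differed widely in the share of genes whose CpG-poor promoter was open, against the 6.28% over all such genes. Among odorant receptor genes, which are expressed in olfactory neurons, 2 of 1141 were open (0.175%, 0.0212 to 0.632). Both are the genes beside the Ifi cluster, Olfr432 with 81 fragments and Olfr433 with 19. No CpG-poor promoter was open among 331 vomeronasal receptor genes (upper end of the interval 1.11%) or 63 defensin genes (5.69%). None was open either among 56 keratin-associated protein, 35 bitter taste receptor and 25 claudin genes, where the upper ends of 6.38%, 10.0% and 13.7% lay above the 6.28%. These low shares were not adjusted for sequence shared between promoters, which is described below. High shares were found for Ifi genes, with 8 of 18 (44.4%, 21.5 to 69.2), S100 genes, with 4 of 15 (26.7%), collagens, with 8 of 31 (25.8%, 11.9 to 44.6), and glutathione S-transferases, with 4 of 16 (25%). Zinc finger genes named Zfp had 34 of 199 open (17.1%, 12.1 to 23), interleukins and their receptors 10 of 68 (14.7%, 7.28 to 25.4) and serpins 7 of 59 (11.9%, 4.91 to 22.9). Solute carriers, with 16 of 200 (8.0%), cytochromes P450, with 5 of 88 (5.68%), and CD antigens, with 5 of 72 (6.94%), were close to the background.

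The Zfp promoters differed from the other members in letters as well as height. Their median CpG ratio was also higher, 0.348 against 0.260, and no contrast given here was adjusted for it. Their 36 peaks had a median fold enrichment of 13.7 and 59.5 fragments over an expected 3.35, compared with 6.99, 40 and 4.56 for the other members. CCAAT occurred in 63.9% (46.2 to 79.2) of them, 40.2% (34.0 to 46.6) of Zfp promoters without a peak and 39.1% (35.7 to 42.6) of the other members. CCGGAAG, the ETS letters with a CpG, occurred in 33.3% (18.6 to 51), 6.15% (3.48 to 9.94) and 3.46% (2.29 to 5.00). The AP-1 letters were found in 1 of 36, against 23.3% (20.4 to 26.5) of the other members. The longer letters CCAATCAG were looked at after they had been seen in the printed sequences of Zfp971 and Zfp442. They also stand in those of Fggy and Akr1e1, which are not Zfp genes. On either strand they occurred in 30.6% (16.3 to 48.1) of open Zfp promoters, 5.74% of those without a peak and 7.18% of the other members. The share over all coding promoters was 3.97%. Zfp971 and Zfp442 are counted among the open Zfp promoters, so that their share is not independent of the choice of letters. Zfp promoters are also partly copies of each other, which the intervals take no account of. A 75-base stretch also found elsewhere among coding promoter windows was present in 22.2% of open Zfp promoters, 12.7% of those without a peak and 4.23% of the other members. Reads that lie wholly in such a stretch cannot be placed uniquely by themselves, though the other read of the pair may place them. Only uniquely mapped reads were kept. Members with such a stretch had a median expected pileup of 2.81 fragments, against 4.60 for those without, and its part in their fold enrichment was not tested. Over all members 5.02% held such a stretch, against 10.4% of closed and 0.692% of open CpG-rich promoters. The stretches were not counted separately for closed promoters of the receptor and defensin families. Their part in the low open shares of these families was not tested.

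**Figure D5:**
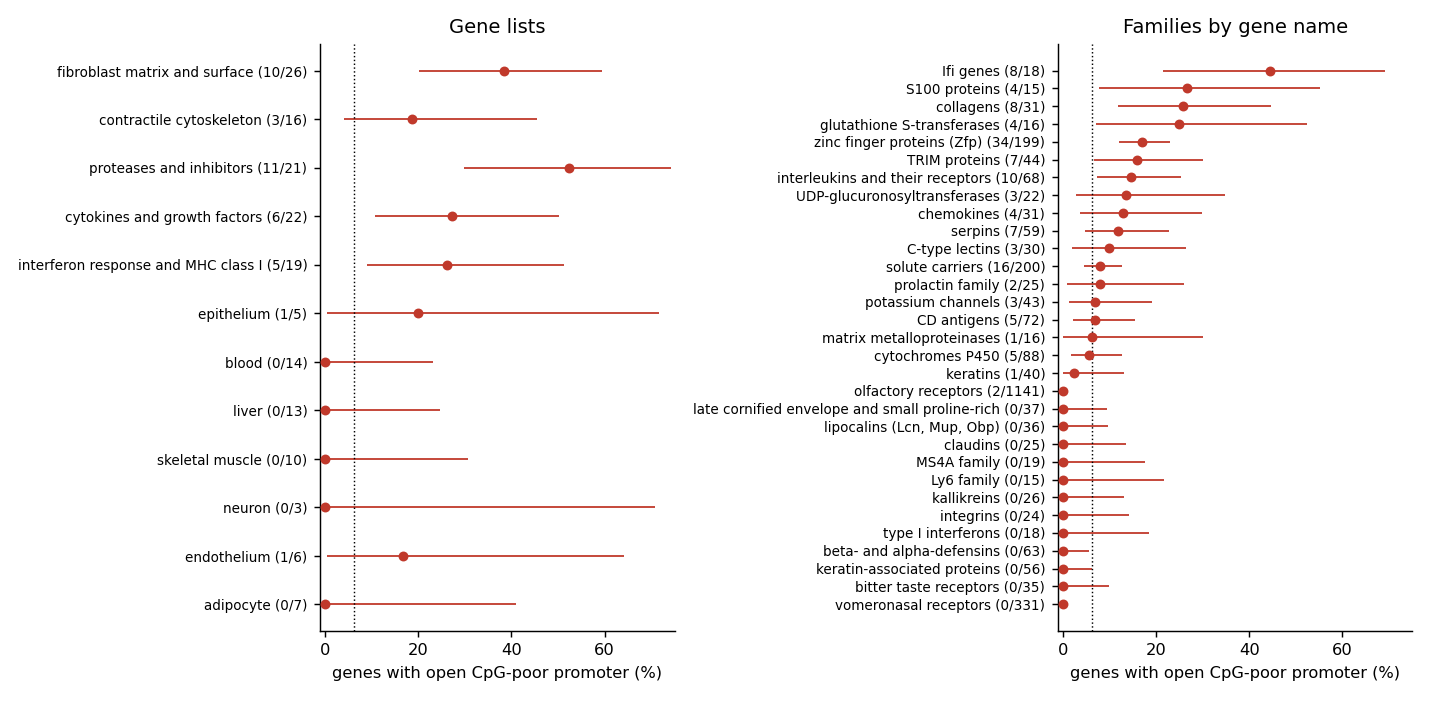
Percentage of genes with a CpG-poor promoter whose CpG-poor promoter lay in a member peak, for 12 gene lists (left) and for families with 15 or more such genes (right), with open and total genes in brackets and exact 95% intervals as lines. The dotted line is the 6.28% over all genes. Among others, proteases and inhibitors, fibroblast matrix genes and Ifi genes lie to the right of it with their whole interval, and odorant and vomeronasal receptors and defensins to the left.

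Genes of the fibroblast programme were open more often than the background. In the list of fibroblast matrix and surface genes, 26 of 33 had a CpG-poor promoter, and it was open in 10 of 26 (38.5%, 20.2 to 59.4). Type I collagen had member peaks at both of its genes, Col1a1 with 31 fragments over a peak of 133 bp and Col1a2 with 56 over 589 bp. Col3a1 and Col5a2, of the fibrillar collagens III and V, had 55 and 96 fragments, and Col6a1 and Col6a3, of the microfibrillar collagen VI, had 37 and 56. The remaining 4 were Cd44, the hyaluronan receptor, with 101, S100a4 with 105, the matrix glycoprotein Sparc with 58 and Spp1, osteopontin, with 11, a count shared with 3 other members and the lowest among them all. Not every matrix gene was open: the small proteoglycan genes Dcn, Lum, Bgn, Fmod, Ogn and Aspn, and Postn, Eln and Mfap5, had a CpG-poor promoter without a peak and no CpG-rich TSS. Peaks lay near some of them, 1308 bp away at Dcn and 1230 bp at Fmod, and 21589 bp away at Ogn.

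The highest share among the lists was that of proteases and their inhibitors, with 11 of 21 (52.4%, 29.8 to 74.3). The plasminogen system was represented by Plat, tissue plasminogen activator, with 54 fragments, the urokinase receptor gene Plaur with 40, and the activator inhibitor Serpinb2 with 19. The aggrecanases Adamts4 and Adamts5 had 61 and 42 fragments and Adamts12 had 66. At Adamts5 the summit lay 675 bp downstream of the TSS, which only the edge of the peak covered. The metalloproteinase inhibitors Timp1 and Timp3 had 28 and 47. Of the matrix metalloproteinases only Mmp19 was a member, with 19 fragments and the AP-1 letters from 32 to 26 bp upstream. Mmp3, Mmp9, Mmp10, Mmp12 and Mmp13 had no peak over their CpG-poor TSS and had no CpG-rich TSS, and the nearest peak to Mmp3 was 126989 bp away.

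In the list of cytokines and growth factors, 6 of 22 were open (27.3%, 10.7 to 50.2). These were Il6 with 47 fragments, Il11 with 43, Il1rl1, the receptor of interleukin-33, with 96, and the chemokines Ccl2, Ccl7 and Cxcl5 with 98, 57 and 46. Il1a, Il1b, Tnf, Csf2, Csf3, Ccl5, Ccl8 and Ccl11 were closed. The interferon response and MHC class I list had 5 of 19 open (26.3%, 9.15 to 51.2), namely the guanylate-binding proteins Gbp2 and Gbp3 with 29 and 57 fragments, Ifi27 with 82, Mx2 with 19 and Irf7, a regulator of interferon genes, with 15. Ifnb1, Isg15, Ifit1, Ifit3 and Oas1a had no peak over the TSS. Peaks were close in some cases, the nearest one lying 5 bp from the TSS of Mx1, 192 bp from that of Ifit3 and 443 bp from that of Irf9.

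Contractile genes had 3 of 16 open (18.8%, 4.05 to 45.6). Ankrd1, a stretch-responsive nuclear protein, had 63 fragments, Acta2 34 and Csrp1 20. Tagln, Cnn1, Actg2, Myl9 and Lmod1, further genes of smooth muscle contraction, had a CpG-poor promoter without a peak and no CpG-rich TSS.

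Markers of other cell types were nearly all closed. No CpG-poor promoter was open among 14 genes of blood cells, 13 of liver, 10 of skeletal muscle, 7 of adipocytes and 3 of neurons. The exceptions were Krt14, a keratin of basal epithelium, with 47 fragments (1 of 5 epithelial genes), and Cdh5, the cadherin of endothelium, with 114 fragments (1 of 6). The lists are short, and none can be told apart from the 6.28% over all genes with a CpG-poor promoter. For blood, liver, skeletal muscle, adipocytes and neurons the intervals reached 23.2%, 24.7%, 30.8%, 41.0% and 70.8%. Those of epithelium (0.505 to 71.6) and endothelium (0.421 to 64.1) also held that value. The summit at Cdh5 lay 335 bp upstream of the TSS. The CpG-poor TSSs of the other markers were covered by no peak, including Krt5, Krt8 and Cldn4 for epithelium and Pecam1, Tek and Vwf for endothelium. Mylpf, a myosin light chain of skeletal muscle, had a CpG-rich TSS in a peak. Peaks also came close to some of the closed TSSs, lying 2 bp from that of the macrophage gene Cd68, 111 bp from Tek, 233 bp from the muscle myosin gene Myh1 and 344 bp from the lipid droplet gene Plin1. An open promoter in this map is an accessible site, and no RNA was measured in these samples.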

How the data were processed

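Processed files of 1 ATAC-seq library were analysed. The authors sequenced 75-nt paired-end reads, aligned them to mm10 with STAR 2.5.3a, kept uniquely mapped reads, discarded duplicates (Picard) and ran MACS2 2.1.1.20160309 on whole fragments to call peaks. For these peaks the methods refer to the ChIP-seq procedure, which discarded those found in input chromatin or in ENCODE blacklisted regions, and no further region filter was applied here. Versions are from the submitters' processing notes. The deposited list gives for each peak a fold enrichment (a ratio), a −log10 p and −log10 q, and a score derived from the −log10 q. The fragment pileup over each summit was solved from the deposited fold enrichment and −log10 p, and 99.997% of pileups came within 0.02 of a whole number. The number of reads of the library is not part of the list, and these pileups give the depth behind each peak.

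TSSs were taken from GENCODE M21 coding transcripts and sequences from the GRCm38 reference, of the C57BL/6J strain. NIH-3T3 cells come from another strain, and their own sequence was not examined. The CpG ratio is the number of CpG times the window length of 1001 bp, divided by the product of the numbers of C and G. A promoter joins TSSs of 1 gene and 1 CpG class within 500 bp, and its best supported TSS in the most open state represents it. Letters of 18 motifs were searched in 300 bp. Sharing of 75-base stretches was counted between different places within these windows.

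The members, the 12 gene lists, the 38 families (defined by gene name) and the motifs were chosen with earlier results of these data known. The named genes are the 10 members highest in fold enrichment and in summit fragments, the list genes with a CpG-poor TSS, the 10 TATA box and 5 CArG box members with the highest summits, the 3 to either side of the limit, the 3 widest and the 3 lowest, with predicted genes passed over in the rankings. An open gene of the protease list is counted but not reported here by name. Further genes in the family and run paragraphs, the split by GC content and the longer CCAAT letters were chosen after their values were seen. The procedure was tested on simulated data. The intervals were computed with SciPy 1.17.1 and figures drawn with matplotlib 3.10.9, in Python 3.11.15 with pandas 2.3.3 and NumPy 2.4.6.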

Additional observations from a re-analysis of the deposited data

How the results depend on the processing

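No paired analysis was possible because 1 library was analysed. Of 42 other settings, 22 left a value within its interval, or a count within 1.5 times, and 20 moved it. The 803 members became 496 with a CpG limit of 0.3 and 1233 with 0.5, and their median fold enrichment of 7.06 became 6.57 and 7.68. The share of CpG-poor promoters in a member peak, 4.52%, was 3.41% and 6.20% with these limits, 3.34% with peaks of fold enrichment 5 or more, 5.35% counted by TSS position, 5.27% without odorant and vomeronasal receptor genes, 5.32% without incomplete 5′ ends and 7.34% with support level 1 only. Summits within 100 bp of the TSS fell from 66.2% to 62.3% with peaks of fold enrichment 5 or more. The TATA box share of closed promoters, 2.69%, was 1.33% for a box between 35 and 25 bp upstream, where members had 1.35%, 4.15% with support level 1 only (members 2.73%) and 3.21% without incomplete 5′ ends (members 2.15%), and the order of the classes at 35 to 25 bp was not that of the wider window. The AP-1 share of members, 22.4%, was 27.7% in 250 bp to either side of the TSS, 28.6% and 18.4% with CpG limits of 0.3 and 0.5. That of closed promoters, 9.61%, was 14.1% in the wider window and 9.07% without receptor genes. In the 3 groups of GC content, from lowest to highest and added after seeing the data, members had 31.9%, 18.6% and 16.5% and closed promoters 10.9%, 7.73% and 7.30%. The share of members with AP-1 letters stayed above that of closed promoters with each setting run on both. The causes of these shifts were not tested, beyond the fewer or further promoters that each setting admits.

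Depth limits the lower end: the lowest member summit had 11 fragments and the lowest distal one 10, and a closed promoter is one without a called peak. With 1 library, the shares carry no error between cultures.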

Other observations

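The members were spread over the 19 autosomes and chromosome X. The share of CpG-poor promoters in a member peak was 4.47% on chromosome X (35 of 783) and between 2.93% (chromosome 14) and 6.55% (chromosome 1) on the autosomes. On chromosome Y, 0 of 236 CpG-poor coding promoters were in a member peak. How many of these share sequence with other promoters was not counted. Zfp genes made up 11.3% of the 204 member promoters with the highest CpG ratio and 1.47% of the 204 with the lowest.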
